A study of Arabidopsis thaliana with 8 samples.

Results

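The 10 genes described here set where and how many stomata form in Arabidopsis. They were chosen by name as regulators of the stomatal lineage, and each is given with its AGI code. All 10 were among the 36799 genes of the count table and among the 21614 genes with enough counts to be tested. They are the transcription factors SPCH, MUTE and FAMA, the peptides EPF1, EPF2 and STOMAGEN, the receptors TMM and ERECTA, the protease SDD1 and the polarity protein BASL.

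Stomata arise from a lineage of epidermal cells that divide asymmetrically, and SPCH, MUTE and FAMA act in that order to start the lineage, to commit its cells to the guard mother cell and to make guard cells. Secreted peptides of the EPF family restrain the lineage through receptor kinases of the ERECTA family and the receptor-like protein TMM, whereas STOMAGEN, which is made in the mesophyll, binds the same receptors and promotes stomata. The signal reaches SPCH through a cascade of MAP kinases, and BASL marks 1 side of the dividing cell together with POLAR and proteins of the BREVIS RADIX family.

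RNA was sequenced from whole seedlings of 10 days, all in the Col-0 background, that had been moved for 4 h to filter paper wet with half-strength MS. The 4 groups were enap1-1enap2 Dehydration, Col-0 Dehydration, enap1-1enap2 Mock and Col-0 Mock, with 2 libraries each, where Dehydration stands for 25% PEG8000 in the medium and Mock for medium without it. The double mutant enap1-1enap2 carries a CRISPR/Cas9 deletion in ENAP1 and a pair of T-DNA insertions in the first exon of ENAP2, both coding for histone-binding proteins, and is represented by this single allele combination. Col-0 is the wild type.

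Counts per library lay between 24007691 and 48279415. Values are given below as CPM, the counts of a gene scaled to a common library total with TMM factors, and 3 counts, the level taken as a floor, were between 0.0608 and 0.135 CPM. ENAP1 was at 12.3 and 11.5 CPM in enap1-1enap2 Dehydration libraries, against 22.5 and 24.4 CPM in Col-0 Dehydration libraries, and at 3.81 and 5.11 CPM in enap1-1enap2 Mock libraries, against 13.9 and 17.3 CPM in Col-0 Mock libraries. ENAP2 was lower in the mutant by log2 fold changes of -0.83 ± 0.20 (SE) under Dehydration and -1.37 ± 0.20 under Mock, although 46.3% of its exon length is shared with a gene on the opposite strand. The dehydration-induced genes RD29A, RD29B and RAB18 were higher after Dehydration by log2 fold changes of 4.01 to 9.84 in enap1-1enap2 and 3.37 to 5.39 in Col-0, and lower in enap1-1enap2 than in Col-0 under Mock by -1.06 to -3.50. RD29A had 552 and 866 CPM and RD29B 43.2 and 4.82 CPM in the Col-0 Mock libraries, the baseline of every response in Col-0 and of every interaction below. The 2 Col-0 Mock libraries were the least alike, with a biological coefficient of variation of 0.139 within the group, against 0.0451 to 0.0923 in the other 3 groups.

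Dehydration for 4 h lowered most of the 10 genes in both genotypes. In enap1-1enap2, 6 of the 10 genes fell at an adjusted p under 0.05 in edgeR's quasi-likelihood test, none rose, and the median log2 fold change of the 10 was -0.68, while 32.4% of all tested genes fell and the median over all of them was -0.01. In Col-0, 9 of the 10 fell, none rose, and the median was -0.81, while 30.0% of all tested genes fell and their median was -0.03. The study also asked for an unadjusted p below 0.01 and for more than a 2-fold change. Under its thresholds 3 of the 10 fell in enap1-1enap2 (MUTE, EPF1 and EPF2) and 3 in Col-0 (EPF1, EPF2 and BASL), against 14.1% and 11.7% of all genes. Both Dehydration libraries lay below both Mock libraries in 8 of the 10 genes in enap1-1enap2, where this held for 42.5% of all tested genes, and in 9 of the 10 genes in Col-0, where it held for 40.5%. ERECTA was the member whose test passed in neither genotype.

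**Figure D1:**
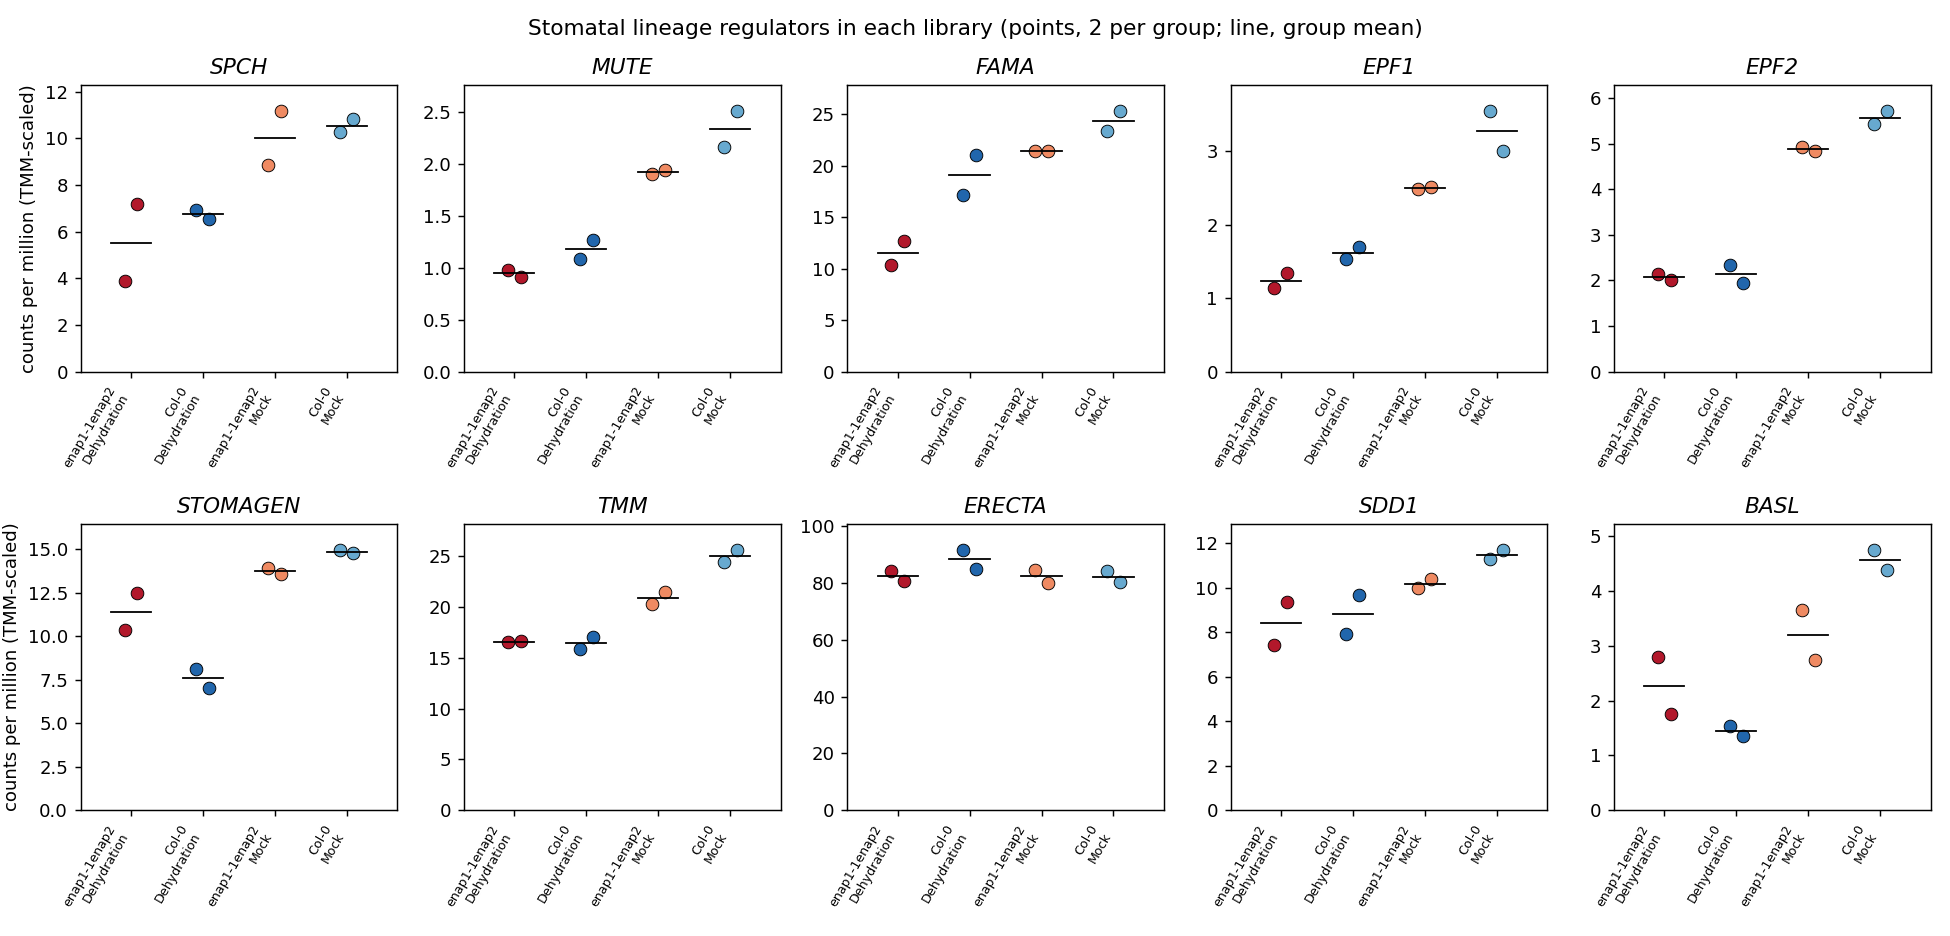
Level of each gene (y axes, CPM, starting at 0 and scaled per gene) in the 2 libraries of each group (points) with the group mean (black line), from left to right enap1-1enap2 Dehydration, Col-0 Dehydration, enap1-1enap2 Mock and Col-0 Mock. The Dehydration points of EPF2 lie between 1.95 and 2.35 CPM and the Mock points between 4.85 and 5.72 CPM, while the points of ERECTA stay between 80.0 and 91.6 CPM in all groups.

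RNA of a whole seedling comes from all of its cells, so that fewer cells of a type and less RNA per cell cannot be told apart in any of these values. Markers of other cells moved with the treatment too. Of 9 genes of dividing cells, 6 fell in enap1-1enap2 and 8 in Col-0, where 32.4% and 30.0% of all tested genes fell, and their summed level was 101.7 to 110.9 CPM in enap1-1enap2 Dehydration, 90.1 to 96.9 CPM in Col-0 Dehydration, 135.9 to 137.4 CPM in enap1-1enap2 Mock and 146.6 to 146.9 CPM in Col-0 Mock. Of 7 root genes, 6 fell in each genotype, beside the same shares of all genes, with summed levels of 36.1 to 36.4, 33.2 to 39.4, 85.3 to 91.0 and 83.3 to 86.2 CPM in the same order of groups. The 5 epidermis genes did not move as 1: FDH and PDF1 rose and PDF2, ATML1 and ACR4 fell in both genotypes, and their summed level was 785.9 to 854.8, 847.9 to 854.0, 678.1 to 678.2 and 632.8 to 668.3 CPM. No marker of these lists, or of the guard cell and mesophyll lists, was at 0 counts in any library, and their part in the changes of the 10 genes was not tested.

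The levels of the 10 genes differed widely when set per kb of exon. In enap1-1enap2 Dehydration the order was ERECTA (20.7 CPM per kb), STOMAGEN (11.6), TMM (9.07), FAMA (4.86), SDD1 (3.34), SPCH (2.54), EPF2 (2.51), BASL (1.79), EPF1 (1.43) and MUTE (1.01), and the libraries of SDD1 and SPCH, of SPCH and EPF2 and of BASL and EPF1 overlapped. In Col-0 Dehydration STOMAGEN stood 4th, at 7.70 CPM per kb beside FAMA at 8.05 CPM per kb, and the libraries of TMM and FAMA, of FAMA and STOMAGEN, of SDD1 and SPCH and of MUTE and BASL overlapped, with BASL the lowest at 1.14 CPM per kb. Both Mock groups had 1 order, with ERECTA, STOMAGEN, TMM and FAMA followed by EPF2, SPCH, SDD1, EPF1, BASL and MUTE. EPF2 was thus in the 5th place under Mock, at 5.90 CPM per kb in enap1-1enap2 and 6.73 CPM per kb in Col-0, and in the 7th place under Dehydration. Libraries of EPF1 and BASL overlapped in both Mock groups, and those of SPCH and SDD1 in enap1-1enap2 Mock.

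**Figure D2:**
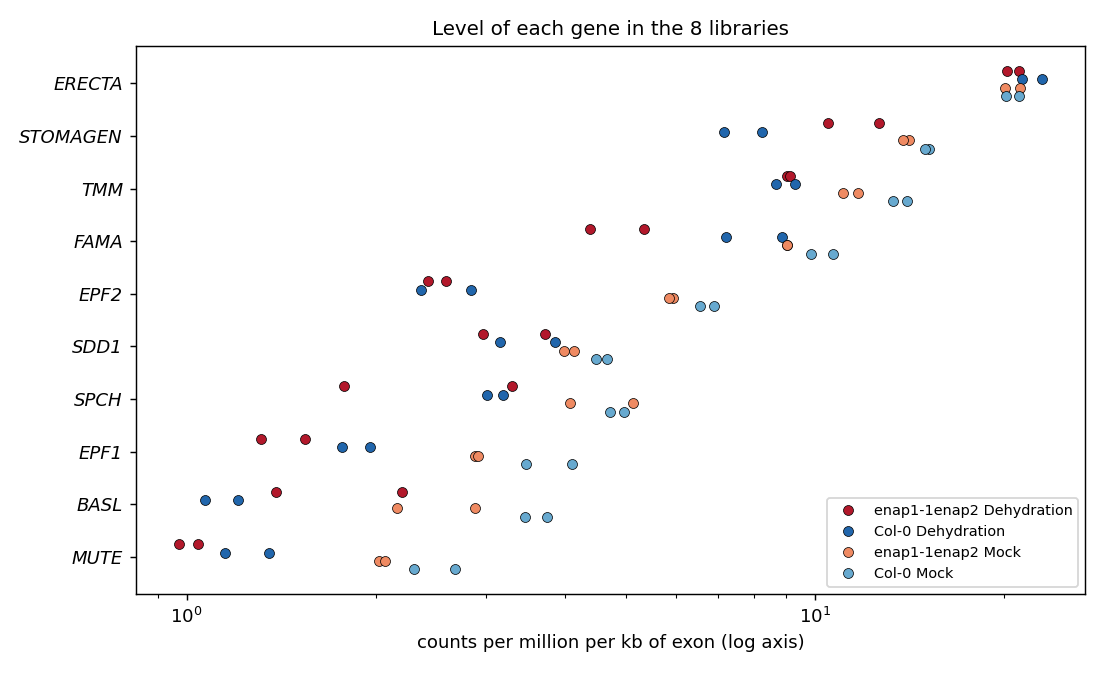
Level of each gene (rows) in the 8 libraries as CPM per kb of exon on a log axis, with the 4 groups in separate colours, enap1-1enap2 Dehydration on top. ERECTA lies at 20.1 to 23.0 CPM per kb in every library, and MUTE lies between 0.972 and 2.67 CPM per kb.

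The 3 transcription factors of the lineage, SPCH (AT5G53210, chr5:21586219-21589255), MUTE (AT3G06120, chr3:1846442-1848259) and FAMA (AT3G24140, chr3:8715118-8718211), are related basic helix-loop-helix proteins. SPCH starts the lineage by driving the first asymmetric divisions. It had 3.88 and 7.18 CPM in enap1-1enap2 Dehydration libraries, against 8.88 and 11.2 CPM in enap1-1enap2 Mock libraries, and 6.95 and 6.54 CPM in Col-0 Dehydration libraries, against 10.3 and 10.8 CPM in Col-0 Mock libraries. All 4 Dehydration libraries were below all 4 Mock libraries, and the first enap1-1enap2 Dehydration library stood well below the second. SPCH fell by log2 fold changes of -0.87 ± 0.23 in enap1-1enap2 (edgeR adjusted p = 0.0032) and -0.65 ± 0.22 in Col-0 (edgeR adjusted p = 0.021). The interaction, which is the response in enap1-1enap2 minus the response in Col-0, was -0.22 with a 95% interval of -0.90 to 0.45. Without enap1-1enap2 Dehydration replicate 1 the response in the mutant was -0.48 (edgeR adjusted p = 0.058), and in Col-0 the adjusted p was 0.062, 0.099 and 0.058 without Dehydration replicate 1, Dehydration replicate 2 and Mock replicate 2.

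MUTE ends the asymmetric divisions and commits a cell to the guard mother cell. Its level was the lowest of the 10 genes per kb in 3 of the 4 groups, with 24 to 124 counts per library. There were 0.982 and 0.915 CPM in enap1-1enap2 Dehydration libraries, against 1.90 and 1.95 CPM in enap1-1enap2 Mock libraries, and 1.08 and 1.27 CPM in Col-0 Dehydration libraries, against 2.17 and 2.51 CPM in Col-0 Mock libraries. Within each treatment both mutant libraries were below both Col-0 libraries, though neither difference between the genotypes passed the test. Under Mock such a placing held for 26.1% of all tested genes, and its share under Dehydration is not given here. MUTE fell 2.02-fold in enap1-1enap2 (log2 fold change -1.01 ± 0.34, edgeR adjusted p = 0.016) and 1.98-fold in Col-0 (-0.99 ± 0.34, edgeR adjusted p = 0.020), with an interaction of -0.03 and a 95% interval of -1.03 to 0.98. At this depth the call did not stand without any 1 of the 4 mutant libraries (edgeR adjusted p of 0.052 to 0.066), nor, in Col-0, without Dehydration replicate 1 (0.093) or Mock replicate 2 (0.096), although the fold change stayed between -0.88 and -1.18 in all alternatives.

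FAMA, which ends the divisions of the guard mother cell and drives guard cell identity, was the transcription factor that differed between the genotypes. It had 10.4 and 12.7 CPM in enap1-1enap2 Dehydration libraries, against 21.4 and 21.4 CPM in enap1-1enap2 Mock libraries, and 17.1 and 21.1 CPM in Col-0 Dehydration libraries, against 23.4 and 25.3 CPM in Col-0 Mock libraries. The 2 mutant Dehydration libraries were below the other 6. FAMA fell 1.86-fold in enap1-1enap2 (log2 fold change -0.90 ± 0.13, edgeR adjusted p = 1.4e-05) and 1.27-fold in Col-0 (-0.35 ± 0.12, edgeR adjusted p = 0.023), and the interaction of -0.55 ± 0.18 passed with an edgeR adjusted p of 0.045. Under Dehydration it was 1.66-fold lower in enap1-1enap2 than in Col-0 (-0.74 ± 0.13, edgeR adjusted p = 0.0014), and this difference passed without each library in turn. The interaction was at the edge of the threshold: it lost its call without enap1-1enap2 Dehydration replicate 1 (-0.41, edgeR adjusted p = 0.19), Col-0 Dehydration replicate 2 (-0.39, 0.19), enap1-1enap2 Mock replicate 1 (-0.54, 0.14) or 2 (-0.55, 0.13), or Col-0 Mock replicate 1 (-0.49, 0.085), and with upper quartile factors (-0.53, 0.055) or library sizes alone (-0.53, 0.072). The fall in Col-0 was -0.21 (edgeR adjusted p = 0.23) without Dehydration replicate 1 and -0.30 (edgeR adjusted p = 0.094) without Mock replicate 2.

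EPF1 and EPF2 are small secreted peptides that restrain the lineage, EPF2 at its entry and EPF1 at the later spacing divisions, and both fell more than 2-fold in both genotypes. EPF2 (AT1G34245, chr1:12472868-12473974) had 2.15 and 2.01 CPM in enap1-1enap2 Dehydration libraries, against 4.92 and 4.85 CPM in enap1-1enap2 Mock libraries, and 2.35 and 1.95 CPM in Col-0 Dehydration libraries, against 5.43 and 5.72 CPM in Col-0 Mock libraries. The spread within a group was small beside the gap between treatments. EPF2 fell 2.35-fold in enap1-1enap2 (log2 fold change -1.23 ± 0.23, edgeR adjusted p = 0.00019) and 2.59-fold in Col-0 (-1.38 ± 0.23, edgeR adjusted p = 9.9e-05), and passed in every alternative and without each library in turn. No difference between the genotypes was detected in it, with an interaction of 0.14 and a 95% interval of -0.55 to 0.84.

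EPF1 (AT2G20875, chr2:8982863-8983814) had 1.14 and 1.34 CPM in enap1-1enap2 Dehydration libraries, against 2.49 and 2.52 CPM in enap1-1enap2 Mock libraries, and 1.53 and 1.70 CPM in Col-0 Dehydration libraries, against 3.55 and 3.0 CPM in Col-0 Mock libraries. As in MUTE, both mutant libraries were below both Col-0 libraries in each treatment, but by less than the test could separate. This placing held for 26.1% of all tested genes under Mock, and its share under Dehydration is not given here. EPF1 fell 2.03-fold in enap1-1enap2 (log2 fold change -1.02 ± 0.30, edgeR adjusted p = 0.0073) and 2.02-fold in Col-0 (-1.01 ± 0.30, edgeR adjusted p = 0.0078), with an interaction of -0.01 and a 95% interval of -0.84 to 0.82. Without enap1-1enap2 Dehydration replicate 1 the response in the mutant was -0.91 (edgeR adjusted p = 0.053).

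STOMAGEN (AT4G12970, chr4:7585869-7587099), the peptide that promotes stomata, responded differently in the 2 genotypes. It had 10.3 and 12.5 CPM in enap1-1enap2 Dehydration libraries, against 13.9 and 13.6 CPM in enap1-1enap2 Mock libraries, and 8.12 and 7.05 CPM in Col-0 Dehydration libraries, against 14.96 and 14.75 CPM in Col-0 Mock libraries. The mutant Dehydration libraries lay between the Col-0 Dehydration libraries and all Mock libraries. In enap1-1enap2 the log2 fold change was -0.28 ± 0.13 (edgeR adjusted p = 0.081), while STOMAGEN fell 1.96-fold in Col-0 (-0.97 ± 0.14, edgeR adjusted p = 2e-05), and the interaction of 0.70 ± 0.19 passed with an edgeR adjusted p of 0.022. Under Dehydration it was 1.5-fold higher in enap1-1enap2 than in Col-0 (0.58 ± 0.14, edgeR adjusted p = 0.012), and under Mock the difference was -0.11 with a 95% interval of -0.39 to 0.17. The interaction kept its direction but not its call without enap1-1enap2 Dehydration replicate 2 (0.56, edgeR adjusted p = 0.11), Col-0 Dehydration replicate 2 (0.60, 0.087), enap1-1enap2 Mock replicate 1 (0.72, 0.077) or enap1-1enap2 Mock replicate 2 (0.68, 0.089), and the first and second of these also ended the call under Dehydration (0.45, 0.13, and 0.48, 0.11). With upper quartile factors or library sizes alone the fall in enap1-1enap2 passed as well (-0.44, edgeR adjusted p of 0.0092 and 0.014), as it did without enap1-1enap2 Dehydration replicate 2 (-0.41, edgeR adjusted p = 0.043), and it was -0.15 without replicate 1 of that group.

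STOMAGEN is made in the mesophyll, and the summed level of 5 mesophyll genes was 13948.5 to 15194.7 CPM in enap1-1enap2 Dehydration, 19360.7 to 19791.1 CPM in Col-0 Dehydration, 23564.9 to 23860.9 CPM in enap1-1enap2 Mock and 24168.3 to 28953.8 CPM in Col-0 Mock. Of these 5, 4 fell in enap1-1enap2 and 3 in Col-0, where 32.4% and 30.0% of all tested genes fell. LHCB2.1 rose in both, where 32.2% and 29.7% of all tested genes rose, with an interaction of 0.73 (edgeR adjusted p = 0.0014). Exact stretches of 31 bases that recur elsewhere made up 34.4% of the LHCB2.1 exons and 32.1% of those of LHCB1.3. Under Dehydration the summed level was lower in the mutant, where RBCS1A (-0.44) and LHCB1.3 (-0.58) were lower and LHCB2.1 (0.39) was higher than in Col-0, while CA1 (0.29) and RCA (-0.13) did not pass, and the part of the mesophyll in the STOMAGEN values was not tested. The log2 ratio of STOMAGEN to EPF2, which bind the same receptors, was taken from their transcript levels per kb. It compares RNA of the whole seedling and not the peptides, follows from the values given above, and was not tested. It was 2.02 and 2.38 in enap1-1enap2 Dehydration libraries, 1.54 and 1.60 in Col-0 Dehydration libraries, 1.25 and 1.24 in enap1-1enap2 Mock libraries and 1.21 and 1.12 in Col-0 Mock libraries. Every Dehydration library was above every Mock library, with the mutant highest. The ratio of STOMAGEN to EPF1 was 3.0 and 3.03 in enap1-1enap2 Dehydration libraries, against 2.22 and 1.87 in Col-0 Dehydration libraries, while the 4 Mock libraries lay between 1.89 and 2.30.

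**Figure D3:**
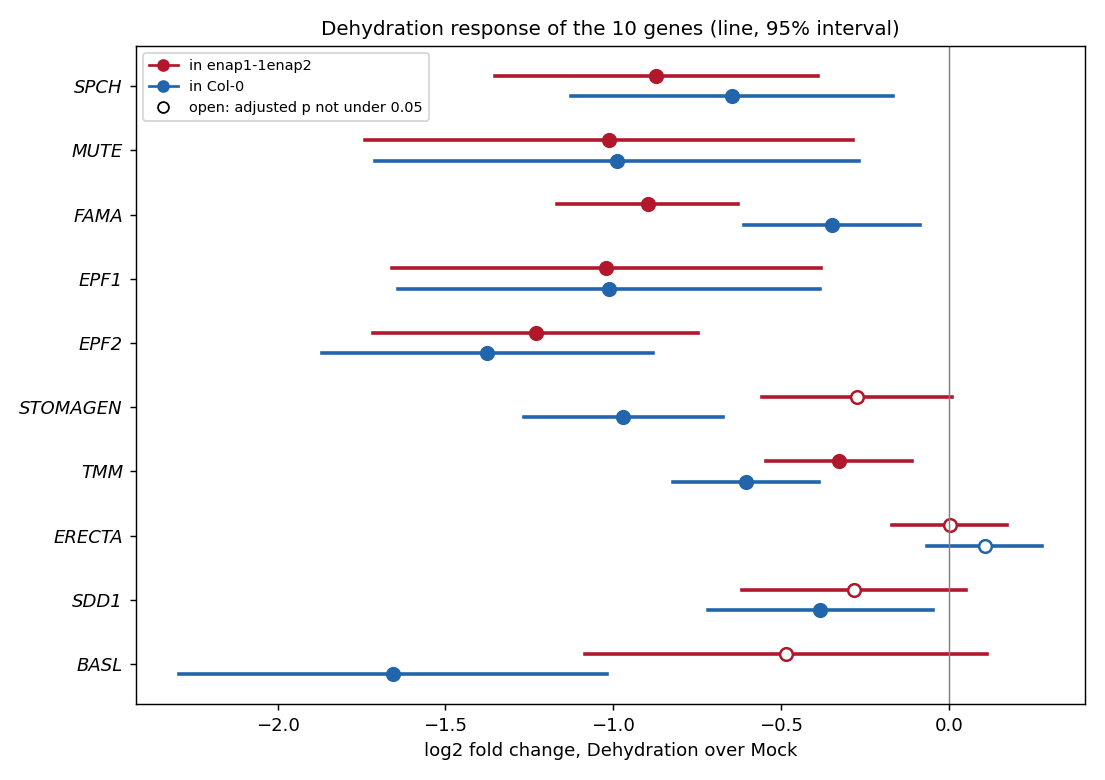
Dehydration response of the 10 genes (x axis, log2 fold change of Dehydration over Mock, with its 95% interval) in enap1-1enap2 (red, upper) and Col-0 (blue, lower), filled where the adjusted p was under 0.05. FAMA lies further left in enap1-1enap2 (-0.90, against -0.35 in Col-0), and STOMAGEN further left in Col-0 (-0.28 in enap1-1enap2, against -0.97 in Col-0).

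The sequences just before these genes are shown because their transcripts moved together or apart: EPF2, EPF1 and MUTE fell about 2-fold in both genotypes, and FAMA and STOMAGEN passed the test of the interaction. Each run is the 250 bases before the gene start of RefSeq, 5′ to 3′ on the strand of the gene, from the TAIR10.1 assembly. All 10 genes start and end at the same positions in RefSeq as in the count table, as did 99.5% of the 32730 genes in both, and none of the windows holds an exon of another gene. Capitals mark the E-box CANNTG, to which basic helix-loop-helix proteins bind, the ACGTG core of the abscisic acid-responsive element and the CCGAC core of the dehydration-responsive element, each searched on both strands. The windows are chr1:12472618-12472867 (plus strand) for EPF2, chr2:8983815-8984064 (minus strand) for EPF1, chr3:1846192-1846441 (plus strand) for MUTE, chr3:8718212-8718461 (minus strand) for FAMA and chr4:7587100-7587349 (minus strand) for STOMAGEN.
EPF2: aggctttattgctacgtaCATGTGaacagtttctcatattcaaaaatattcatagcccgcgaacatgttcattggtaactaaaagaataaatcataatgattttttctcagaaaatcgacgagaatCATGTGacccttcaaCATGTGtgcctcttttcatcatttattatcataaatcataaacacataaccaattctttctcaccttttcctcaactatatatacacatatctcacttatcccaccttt
EPF1: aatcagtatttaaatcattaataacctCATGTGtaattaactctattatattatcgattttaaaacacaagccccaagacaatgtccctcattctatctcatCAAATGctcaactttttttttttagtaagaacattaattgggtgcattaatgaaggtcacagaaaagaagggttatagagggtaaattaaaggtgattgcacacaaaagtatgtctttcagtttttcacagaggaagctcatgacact
MUTE: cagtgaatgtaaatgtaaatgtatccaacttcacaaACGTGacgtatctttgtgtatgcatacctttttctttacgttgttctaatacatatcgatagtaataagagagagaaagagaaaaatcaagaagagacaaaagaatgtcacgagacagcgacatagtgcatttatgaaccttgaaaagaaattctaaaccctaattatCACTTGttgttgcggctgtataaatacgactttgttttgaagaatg
FAMA: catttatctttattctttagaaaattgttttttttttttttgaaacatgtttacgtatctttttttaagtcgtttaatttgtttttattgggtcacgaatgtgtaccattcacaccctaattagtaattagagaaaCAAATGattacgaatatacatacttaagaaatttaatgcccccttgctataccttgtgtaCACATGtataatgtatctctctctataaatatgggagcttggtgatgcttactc
STOMAGEN: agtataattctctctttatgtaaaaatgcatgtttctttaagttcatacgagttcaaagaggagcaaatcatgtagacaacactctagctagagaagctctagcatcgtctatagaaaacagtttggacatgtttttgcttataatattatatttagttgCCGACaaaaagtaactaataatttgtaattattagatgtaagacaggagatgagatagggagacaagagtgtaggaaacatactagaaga

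The EPF2 window held 3 E-boxes, those of EPF1 and FAMA 2 each and that of MUTE 1. The STOMAGEN window held no E-box and 1 CCGAC core, and the MUTE window 1 ACGTG core. Over all 10 genes, 6 windows held an E-box, against 55.3% of the same windows of 27443 protein-coding genes, 2 held ACGTG, against 22.9%, and 3 held CCGAC, against 12%. The G-box CACGTG, which is both an E-box and an ACGTG core, was in none of the 10 and in 6.49% of all windows. A match is a description of the letters only.

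TMM (AT1G80080, chr1:30127819-30129649) is a receptor-like protein with leucine-rich repeats and without a kinase, found in the stomatal lineage, and ERECTA (AT2G26330, chr2:11208080-11214662) is a receptor kinase present in many shoot tissues. The receptors differed in their response. TMM had 16.5 and 16.7 CPM in enap1-1enap2 Dehydration libraries, against 20.3 and 21.4 CPM in enap1-1enap2 Mock libraries, and 15.9 and 17.0 CPM in Col-0 Dehydration libraries, against 24.4 and 25.6 CPM in Col-0 Mock libraries. The 4 Dehydration libraries were close to each other. Both mutant Mock libraries lay below both Col-0 Mock libraries, which held for 26.1% of all tested genes, and the difference did not pass the test. TMM fell 1.26-fold in enap1-1enap2 (log2 fold change -0.33 ± 0.10, edgeR adjusted p = 0.010) and 1.52-fold in Col-0 (-0.61 ± 0.10, edgeR adjusted p = 1e-04), and the interaction of 0.28 ± 0.14 did not pass (edgeR adjusted p = 0.21). Without enap1-1enap2 Mock replicate 2 the fall in the mutant was -0.30 (edgeR adjusted p = 0.070).

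ERECTA had 84.2 and 80.5 CPM in enap1-1enap2 Dehydration libraries, against 84.5 and 80.0 CPM in enap1-1enap2 Mock libraries, and 91.6 and 85.0 CPM in Col-0 Dehydration libraries, against 84.0 and 80.2 CPM in Col-0 Mock libraries. With 2002 to 3956 counts per library it was the most precisely measured of the 10. The log2 fold change was 0.00 in enap1-1enap2, with a 95% interval of -0.17 to 0.17, and 0.11 in Col-0, with an interval of -0.07 to 0.28, so that a fall of the size seen in EPF2 lay outside both intervals. These values are relative to the scaling of the libraries: with upper quartile factors or library sizes alone, which moved the median of all genes by -0.16 to -0.19 in the dehydration comparisons, ERECTA was at -0.16 in enap1-1enap2 and -0.08 in Col-0.

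SDD1 (AT1G04110, chr1:1061297-1063809) is a subtilisin-like protease that limits the number of stomata. It had 7.44 and 9.36 CPM in enap1-1enap2 Dehydration libraries, against 10.0 and 10.4 CPM in enap1-1enap2 Mock libraries, and 7.94 and 9.68 CPM in Col-0 Dehydration libraries, against 11.3 and 11.7 CPM in Col-0 Mock libraries. The Dehydration libraries were the lower ones in both genotypes, and the 2 Dehydration libraries of each genotype differed by more than the Mock libraries. In enap1-1enap2 the log2 fold change was -0.28 ± 0.16 (edgeR adjusted p = 0.13), and in Col-0 SDD1 fell 1.3-fold (-0.38 ± 0.16, edgeR adjusted p = 0.046). The call in Col-0 was at the threshold and was lost with DESeq2 (-0.38, DESeq2 adjusted p = 0.077), in a fit of the 4 Col-0 libraries (-0.38, 0.064), without Col-0 Dehydration replicate 1 (-0.25, 0.28), without either Col-0 Mock library (0.067 for replicate 1 and 0.11 for replicate 2) and without either enap1-1enap2 Mock library (0.063 each). In enap1-1enap2 the fall passed with upper quartile factors (-0.45, edgeR adjusted p = 0.022) and library sizes alone (-0.45, 0.030).

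BASL (AT5G60880, chr5:24488289-24489836), which marks 1 side of the asymmetrically dividing cell, had the largest fall of the 10 genes in Col-0. It had 2.79 and 1.76 CPM in enap1-1enap2 Dehydration libraries, against 3.65 and 2.75 CPM in enap1-1enap2 Mock libraries, and 1.53 and 1.36 CPM in Col-0 Dehydration libraries, against 4.75 and 4.38 CPM in Col-0 Mock libraries. The mutant libraries of the 2 treatments overlapped, while those of Col-0 were far apart. In enap1-1enap2 the log2 fold change was -0.49 ± 0.28 (edgeR adjusted p = 0.14), and in Col-0 BASL fell 3.15-fold (-1.66 ± 0.30, edgeR adjusted p = 2e-04), in every alternative and without each library in turn. The interaction of 1.17 ± 0.41 had an unadjusted p of 0.012 and an edgeR adjusted p of 0.065, so that a difference between the genotypes was not established. It passed without a filter on low counts (1.18, edgeR adjusted p = 0.027) and without enap1-1enap2 Dehydration replicate 2 (1.45, edgeR adjusted p = 0.035), and the fall in the mutant passed without enap1-1enap2 Dehydration replicate 1 (-0.88, edgeR adjusted p = 0.040). Leaving out each library in turn gave interactions of 0.79 to 1.45 (edgeR adjusted p up to 0.27) and responses in the mutant of -0.88 to -0.21 (up to 0.59), with the lowest interaction without enap1-1enap2 Dehydration replicate 1 and the smallest response without replicate 2 of that group.

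Set directly against Col-0, the mutant differed by the adjusted p in 2 of the 10 genes under Dehydration, and no difference passed under Mock. Under Dehydration STOMAGEN was higher and FAMA lower at an adjusted p under 0.05, while 6.56% of all tested genes were higher and 8.14% lower, and none of the 10 passed the thresholds of the study with edgeR or DESeq2, against 2.41% of all genes. BASL was at 0.67 ± 0.31 (edgeR adjusted p = 0.17), and at 0.28 without enap1-1enap2 Dehydration replicate 1. SPCH was at -0.30 ± 0.24 (edgeR adjusted p = 0.43), which became -0.80 (edgeR adjusted p = 0.041) without enap1-1enap2 Dehydration replicate 2 and 0.09 without replicate 1. Under Mock none of the 10 passed at an adjusted p under 0.05, where 7.17% of all genes did, nor under the thresholds of the study with edgeR or DESeq2, where 1.34% did. TMM alone had an unadjusted p under 0.05 there (-0.26 ± 0.10, edgeR adjusted p = 0.13). The fold changes under Mock were below 0 in 9 of the 10 genes, with a median of -0.19, against -0.01 over all genes, and in 8 of the 10 both mutant libraries lay below both Col-0 libraries, which held for 26.1% of all genes. In the test of the interaction STOMAGEN was higher and FAMA lower, as given above, against 8.07% and 8.76% of all genes.

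**Figure D4:**
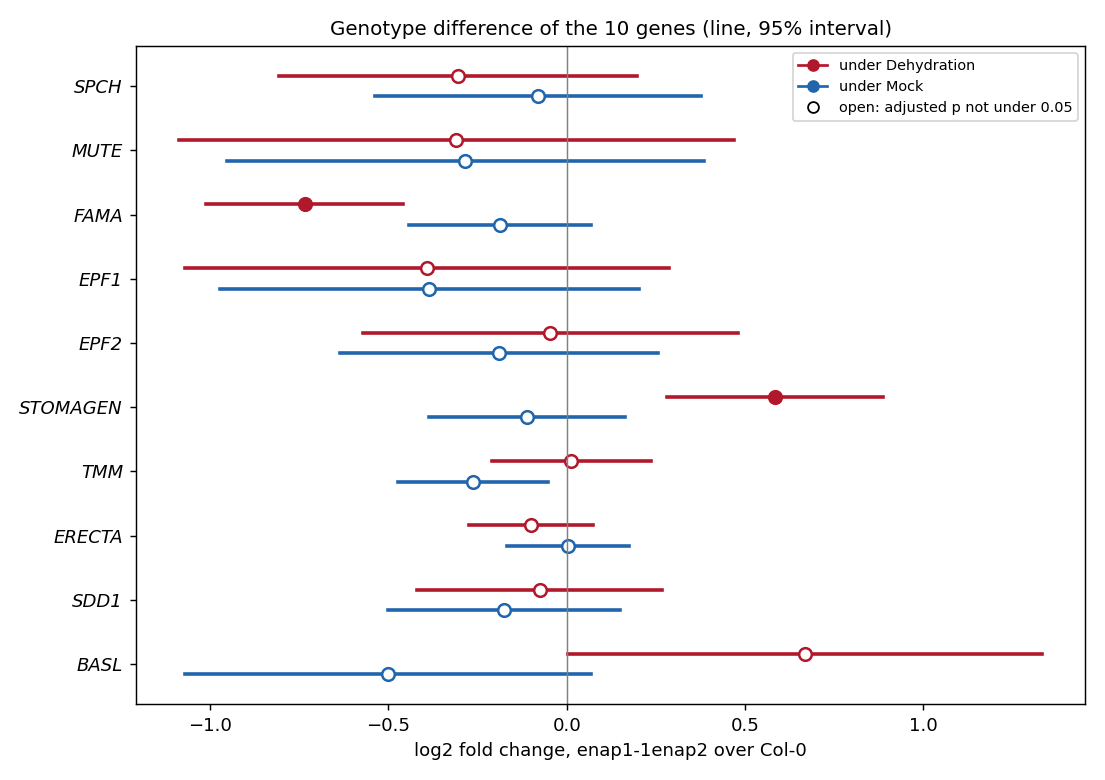
Difference between the genotypes for the 10 genes (x axis, log2 fold change of enap1-1enap2 over Col-0, with its 95% interval) under Dehydration (red, upper) and under Mock (blue, lower), filled where the adjusted p was under 0.05. Only FAMA (-0.74) and STOMAGEN (0.58) under Dehydration are filled, and under Mock all points but that of ERECTA lie left of 0.

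The other genes of the pathway were read from 5 lists of 35 genes. AT1G80133, annotated as an EPF-like peptide, had too few counts to be tested, so that 34 were. In enap1-1enap2 11 of the 34 fell and 6 rose, with a median log2 fold change of -0.18, where 32.4% of all genes fell and 32.2% rose. In Col-0 12 fell and 8 rose, with a median of -0.06, where 30.0% of all genes fell and 29.7% rose. Both medians were nearer to those of all genes than the medians of the 10 genes were, but the 5 lists differed. The median was -0.68 in enap1-1enap2 and -0.48 in Col-0 for receptors and co-receptors, and -0.17 and -0.76 for transcription regulators. It was -0.05 and -0.46 for EPF-like peptides and a protease, -0.19 and 0.04 for MAP kinases, and 0.44 and 0.71 for polarity genes.

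Of 8 further transcription regulators of the lineage, 3 fell in enap1-1enap2 and 5 in Col-0, where 32.4% and 30.0% of all tested genes fell. RBR1, the retinoblastoma-related cell cycle repressor, rose by 0.36 in Col-0. SCRM2, a partner of SPCH, MUTE and FAMA, was at 22.9 and 24.6 CPM in enap1-1enap2 Dehydration libraries, against 36.4 and 33.5 CPM in enap1-1enap2 Mock libraries, and at 19.8 and 18.8 CPM in Col-0 Dehydration libraries, against 31.7 and 36.1 CPM in Col-0 Mock libraries (log2 fold changes of -0.56 and -0.82). FLP and MYB88, MYB factors that limit the last division of the lineage, fell, with log2 fold changes of -0.93 and -1.04 in enap1-1enap2 and -0.94 and -1.11 in Col-0. SOL2, a DNA-binding protein of the lineage, was at -0.18 ± 0.11 in enap1-1enap2, which did not pass, and fell in Col-0 (-0.82 ± 0.12, edgeR adjusted p = 1.8e-05), with an interaction of 0.64 ± 0.16 (edgeR adjusted p = 0.013). The SOL2 interaction lost its call without enap1-1enap2 Dehydration replicate 2, Col-0 Dehydration replicate 1 or enap1-1enap2 Mock replicate 1 (edgeR adjusted p up to 0.069). An opposite-strand gene shares 20.3% of its exon length, and without strand their reads cannot be told apart. ICE1, the other partner of SPCH, was at -0.10 in enap1-1enap2 and 0.02 in Col-0, neither past the test. RBR1 no longer passed with upper quartile factors or library sizes alone (adjusted p up to 0.12).

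Among 6 receptors and co-receptors 4 fell in enap1-1enap2 and 3 in Col-0, where 32.4% and 30.0% of all tested genes fell. SERK1 and SERK2, co-receptors of the ERECTA family, fell, with log2 fold changes of -1.04 and -0.76 in enap1-1enap2 and -0.78 and -0.83 in Col-0. ERL2, a close relative of ERECTA, fell in enap1-1enap2 (-0.73) and in Col-0 (-0.54). ERL1 fell in enap1-1enap2 (-0.62 ± 0.19) and had -0.42 in Col-0. SERK4 was lower in enap1-1enap2 than in Col-0 under Dehydration (-0.51), but 27.7% of its exons recur elsewhere in the genome as exact stretches of 31 bases. BAK1, the co-receptor of many receptor kinases, was at -0.03 in enap1-1enap2 and rose in Col-0 (0.33 ± 0.08, edgeR adjusted p = 0.0022, and up to 0.11 with other scaling). Its interaction of -0.36 ± 0.11 passed with an edgeR adjusted p of 0.041, but in only 1 of the 8 fits that left out a library.

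The EPF-like peptides were expressed at low levels. AT4G37810 fell in both genotypes (-1.19 in enap1-1enap2 and -0.93 in Col-0) and AT5G10310 in Col-0 (-0.997, edgeR adjusted p = 0.040), and the other 5 that were tested passed in neither. CRSP, a protease that cuts the EPF2 propeptide, moved the other way. It had 22.6 and 25.0 CPM in enap1-1enap2 Dehydration libraries, against 10.5 and 10.8 CPM in enap1-1enap2 Mock libraries, and 16.0 and 13.5 CPM in Col-0 Dehydration libraries, against 13.3 and 9.97 CPM in Col-0 Mock libraries. CRSP rose 2.23-fold in enap1-1enap2 (1.16 ± 0.14, edgeR adjusted p = 3e-06) and 1.28-fold in Col-0 (0.35 ± 0.14, edgeR adjusted p = 0.046), and the interaction was 0.81 ± 0.20 (edgeR adjusted p = 0.013). The CRSP interaction lost its call without enap1-1enap2 Dehydration replicate 2, Col-0 Dehydration replicate 2 or enap1-1enap2 Mock replicate 1 (edgeR adjusted p up to 0.065). Its rise in Col-0 passed in 3 of 8 alternatives and in 2 of the 8 fits that left out a library.

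In the MAP kinase cascade MPK6 rose (0.75 in enap1-1enap2 and 0.62 in Col-0) and MPK3, which acts beside it, fell (-0.65 and -0.61), while YDA, MKK4 and MKK5 above them passed in neither genotype. In the polarity complex POLAR, a partner of BASL, fell in both genotypes: it had 1.76 and 2.15 CPM in enap1-1enap2 Dehydration libraries, against 6.60 and 5.88 CPM in enap1-1enap2 Mock libraries, and 2.21 and 3.35 CPM in Col-0 Dehydration libraries, against 6.53 and 6.24 CPM in Col-0 Mock libraries. The log2 fold changes were -1.69 ± 0.24 in enap1-1enap2 and -1.19 ± 0.24 in Col-0 (edgeR adjusted p of 1.6e-05 and 0.00046), and a gene on the opposite strand shares 20.2% of the POLAR exons. BRX and BRXL2, of the BREVIS RADIX family, rose by 1.19 and 0.74 in enap1-1enap2 and by 1.68 and 0.99 in Col-0, and the phosphatases BSL2 and BSL3 rose by 0.57 and 0.44 and by 0.83 and 0.71. Exact stretches of 31 bases found elsewhere in the genome made up 18.5% of the BRX exons, 2.61% of those of BSL2 and none of those of the 10 genes. BSL1 fell in enap1-1enap2 (-0.24) and had 0.14 in Col-0, with an interaction of -0.38 ± 0.12 (edgeR adjusted p = 0.036) that passed in only 1 of the 8 fits that left out a library.

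**Figure D5:**
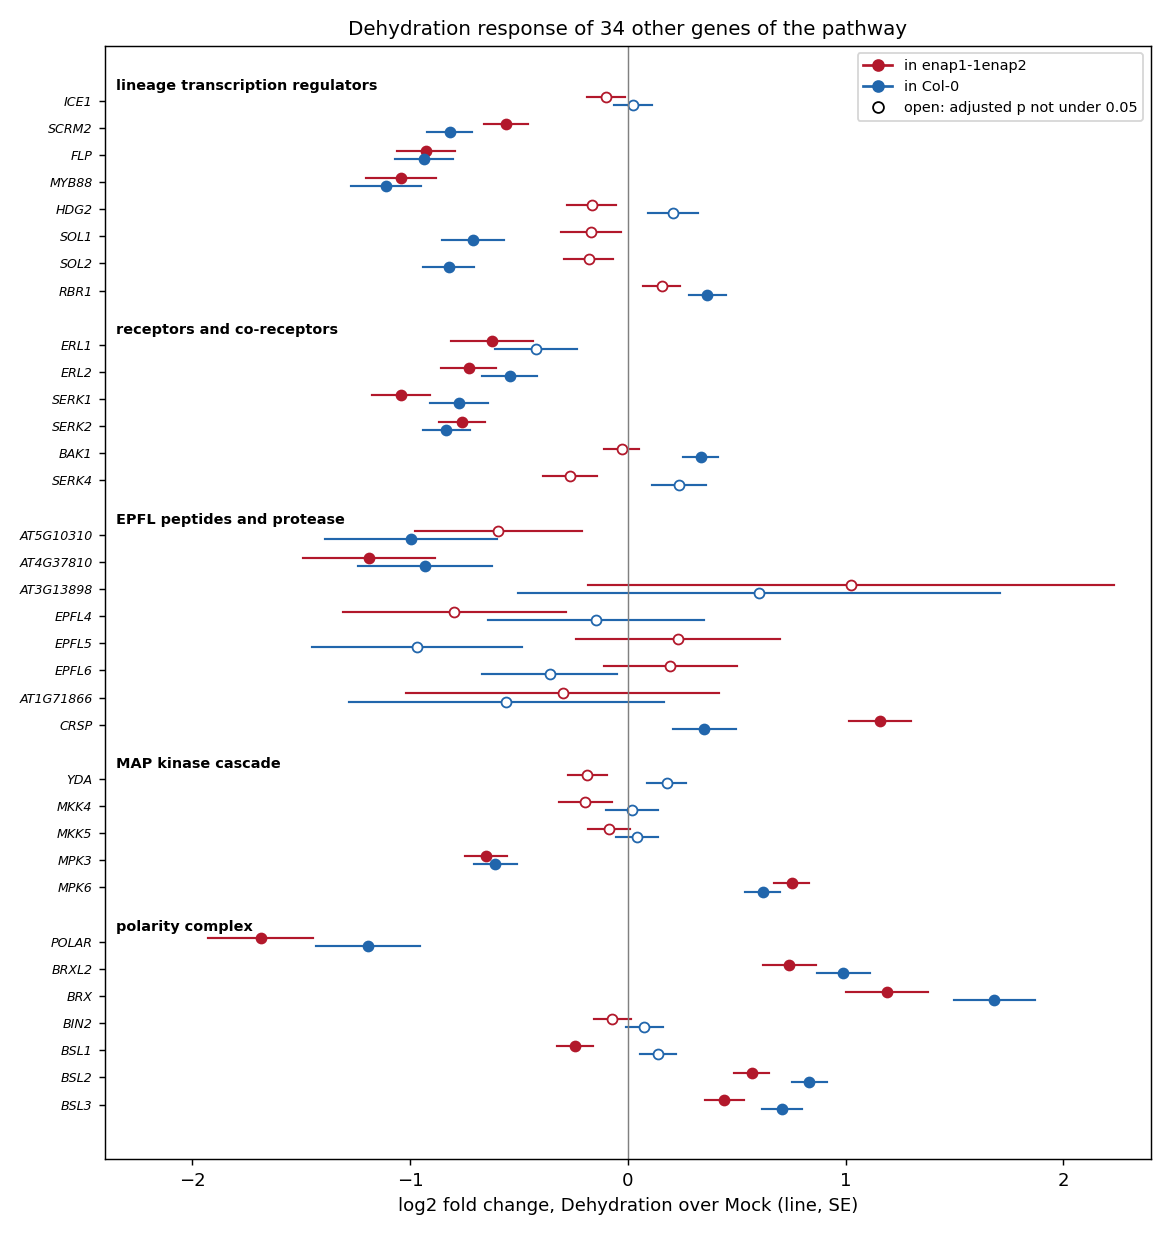
Dehydration response of the 34 other pathway genes (x axis, log2 fold change of Dehydration over Mock, line for 1 SE) in enap1-1enap2 (red, upper) and Col-0 (blue, lower), grouped by list and filled where the adjusted p was under 0.05. POLAR lies furthest to the left (-1.69 in enap1-1enap2) and BRX furthest to the right of the genes that passed (1.68 in Col-0).

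Some profiles over the 8 libraries came close to each other. Likeness was measured as the root mean square difference of log2(CPM + 0.5) after each gene was centred on its own mean. Profiles were not scaled to their spread, so that genes that vary little differ little from each other. The SD of the profile was 0.0641 for ERECTA, 0.216 for SDD1, 0.265 for TMM, 0.575 for BASL and 0.612 for EPF2. Among the 10 genes the closest pairs were TMM and SDD1 (0.118) and MUTE and EPF1 (0.126). The nearest of all tested genes to EPF2 were AT2G25480, a TPX2 family protein (0.0633), UGT84A2 (0.0657) and MEB2 (0.0751), and those to EPF1 were ICK5, a cyclin-dependent kinase inhibitor (0.0705), MIF1 (0.0785) and PERK10 (0.0834). Nearest to FAMA were AT1G05640 (0.0738), AT1G56020 (0.0763) and CAB3, a chlorophyll-binding protein (0.0905), and to STOMAGEN AT3G13190 (0.0692), AT3G51230 (0.0733) and AT5G45590 (0.0769). BASL had no gene as close, with AT1G10380 (0.138), SCPL9 (0.142) and AT2G32560 (0.148). For SPCH they were AT3G09162 (0.0919), CYP71B23 (0.111) and AT3G19508 (0.117), and for MUTE AT3G47650 (0.0353), AT3G24506 (0.0546) and AT3G46170 (0.0587). For TMM they were AT2G45340 (0.0459), AT4G32240 (0.0484) and RPH1 (0.0498), for ERECTA AT3G47670 (0.0330), MOS7 (0.0368) and ZWI (0.0387), and for SDD1 AT1G76740 (0.0520), NKS1 (0.0542) and AT1G72010 (0.0565). With 8 libraries and 21614 genes to choose from, such closeness is a description only.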

How the data were processed

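RNA-seq libraries of whole seedlings were analysed from the deposited raw counts per gene, which the authors made by trimming with Trim Galore 0.6.7, mapping to TAIR10 (bowtie2 in the methods, while the alignment names in the file header have the form that STAR gives) and counting reads in exons of Araport11 genes with featureCounts 2.0.1, without strand. Of counts of at least 10 and under 100, 79.2% to 83.6% per library were even, as when both mates of a pair are counted. In each library the counts also outnumbered the uniquely mapped reads that the study reports, so that independent fragments were fewer than counts.

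Of 36799 genes, the 21614 that passed filterByExpr were tested with edgeR 4.0.16 (limma 3.58.1, R 4.3.3) by the quasi-likelihood F-test with TMM factors, 1 mean for each of the 4 groups over 8 libraries, and 5 contrasts, with Benjamini-Hochberg adjustment over all genes tested. Errors are SE and intervals are 95% intervals of the fit. Genes "rose" or "fell" at an adjusted p under 0.05. The study's thresholds add to this a p under 0.01 and a log2 fold change above 1 or below -1, and for the interaction only the adjusted p was used. The p-values rest on the spread between the 2 replicates per group, which the study calls biological. This spread was estimated jointly over the 4 groups and moderated over genes. A p-value therefore does not measure the spread of the compared groups alone. Comparisons share libraries: each dehydration comparison shares its groups with those between genotypes.

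The 10 genes and the lists were chosen with earlier results of these data known. Named were the 10 genes, ENAP1, ENAP2, RD29A, RD29B, RAB18, up to 4 genes per list with the smallest p in each contrast and the 3 nearest profiles per gene; other list genes were named after their values were seen. Names and sequences came from RefSeq (TAIR10.1), where all 10 genes matched. Alternatives were RLE and upper quartile factors, library sizes alone, no filter, a filter of 1 CPM in 2 libraries, DESeq2 1.42.0, a replicate block, the 4 libraries of a comparison, other thresholds and leaving out each library. A fit that leaves 1 library in a group assumes that it varies like the other groups.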

Additional observations from a re-analysis of the deposited data

Results flagged for a closer look

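A test of the interaction found that the dehydration response differed between enap1-1enap2 and Col-0 in 6 of the 44 genes of the 10 and the pathway lists that were tested, with edgeR adjusted p of 0.013 to 0.045, 3 of them higher and 3 lower in enap1-1enap2, where 8.07% of all tested genes were higher and 8.76% lower. In neither direction was the share among the 44 above that of all tested genes. The difference between the responses, as the log2 fold change in enap1-1enap2 minus that in Col-0, was -0.55 for FAMA and 0.70 for STOMAGEN. It was 0.64 for SOL2, -0.36 for BAK1, 0.81 for CRSP and -0.38 for BSL1. Of the 8 fits that left out a library, 3 kept the call for FAMA, 4 for STOMAGEN, 5 each for SOL2 and CRSP and 1 each for BAK1 and BSL1, and no pathway gene passed without enap1-1enap2 Dehydration replicate 2 or without enap1-1enap2 Mock replicate 1. The difference under Mock was 0.40 for BSL1 (edgeR adjusted p = 0.0086), while none was detected under Mock for the other 5.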

How the results depend on the processing

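Under the study's thresholds 3 of the 10 genes passed in enap1-1enap2 after Dehydration, 5 with upper quartile factors and 5 with library sizes alone, 6 by the adjusted p alone, 0 above an absolute log2 fold change of 1.5, and 1 to 4 without each library in turn. In Col-0 3 passed, 5 with upper quartile factors and 5 with library sizes alone, 9 by the adjusted p alone and 1 above 1.5. For the interaction 2 passed, 1 with upper quartile factors, 1 with library sizes alone, and 0 to 2 without each library in turn. Between genotypes under Dehydration 0 passed, and 2 by the adjusted p alone. Of the 34 pathway genes 6 passed in enap1-1enap2, 17 by the adjusted p alone and 1 above 1.5. In Col-0 3 passed, 9 with upper quartile factors, 7 with library sizes alone, 20 by the adjusted p alone, 1 above 1.5, and 2 to 5 without each library in turn. For the interaction 4 passed, and 0 to 4 without each library in turn. Between genotypes 0 passed, and by the adjusted p alone 4 under Dehydration and 2 under Mock. Upper quartile factors and library sizes alone moved the median of all genes by -0.16 in enap1-1enap2 and by -0.19 and -0.18 in Col-0, and the cause of the other changes was not tested.

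The values that changed sign had not passed the test. ERECTA in enap1-1enap2 was at -0.0091 with RLE factors, -0.0052 with no filter, -0.0092 with DESeq2, -0.00289 with the 1 CPM filter, -0.00305 in the fit of 4 libraries, -0.16 with upper quartile factors or library sizes alone, and -0.043 to 0.041 without each library in turn. In Col-0 it was -0.081 with upper quartile factors and -0.080 with library sizes alone, and between genotypes under Mock -0.030 with upper quartile factors and -0.039 to 0.044 without each library in turn. The interaction of EPF1 was 0.017 with upper quartile factors, 0.015 with library sizes alone and 0.00167 with no filter. Without each library in turn interactions ranged over -0.72 to 0.17 for SPCH, -0.14 to 0.098 for MUTE, -0.13 to 0.11 for EPF1 and -0.068 to 0.26 for SDD1. Differences between genotypes under Dehydration ranged over -0.80 to 0.092 for SPCH, -0.17 to 0.090 for EPF2, -0.036 to 0.064 for TMM and -0.24 to 0.087 for SDD1, and under Mock over -0.25 to 0.080 for SPCH.

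The labels do not say whether same-numbered libraries were handled together. Deviations of same-numbered libraries correlated at -0.0578 to 0.0751 between groups, so that no effect shared by them was detected. With the replicate block 2 of the 10 genes passed in enap1-1enap2, 3 in Col-0 and 2 for the interaction, and of the pathway genes 6, 3 and 3. The depth limited MUTE most, with 24 to 124 counts per library and an SE of 0.34 in either dehydration comparison.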

Other observations

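Markers of mature guard cells, the cells in which the lineage ends, moved in both directions. Of 8 such genes, 4 fell and 1 rose in enap1-1enap2 and 4 fell and 3 rose in Col-0, with median log2 fold changes of -0.46 and -0.70. Of all tested genes 32.4% fell and 32.2% rose in enap1-1enap2, and 30.0% fell and 29.7% rose in Col-0. MYB60, a transcription factor of guard cells, fell in enap1-1enap2 (-1.83) and in Col-0 (-1.65), as did the potassium channel KAT2 (-1.38 in enap1-1enap2 and -1.10 in Col-0). HT1, a kinase in the response to CO2, fell in enap1-1enap2 (-0.90) and in Col-0 (-0.97), and ALMT12, an anion channel of stomatal closure, rose by 1.72 in enap1-1enap2 and 1.39 in Col-0. SLAC1, the anion channel that closes stomata, rose in Col-0 (1.14). In enap1-1enap2 its change did not pass, at 2.71 to 2.82 CPM under Dehydration against 1.60 to 2.02 CPM under Mock. A gene on the opposite strand shares 36.3% of the SLAC1 exons.

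AT1G22690, known as the guard cell gene GC1, had the largest interaction of the genes on the cell type lists. It had 2.95 and 3.80 CPM in enap1-1enap2 Dehydration libraries, against 39.3 and 37.0 CPM in enap1-1enap2 Mock libraries, and 8.66 and 11.8 CPM in Col-0 Dehydration libraries, against 25.8 and 26.2 CPM in Col-0 Mock libraries. The log2 fold changes were -3.52 ± 0.15 in enap1-1enap2 and -1.34 ± 0.14 in Col-0, with an interaction of -2.17 ± 0.21 (edgeR adjusted p = 1.4e-05). It was lower in the mutant than in Col-0 under Dehydration (-1.62) and higher under Mock (0.55). The markers did not go 1 way: under Dehydration 1 of the 8 genes was higher and 1 lower in the mutant at an adjusted p under 0.05. ALMT12 was at 23.6 CPM in both enap1-1enap2 Dehydration libraries, against 16.8 and 17.7 CPM in Col-0 Dehydration libraries. The summed level of the 8 genes was 64.0 to 65.6 CPM in enap1-1enap2 Dehydration, 68.2 to 71.0 CPM in Col-0 Dehydration, 94.0 to 94.2 CPM in enap1-1enap2 Mock and 83.1 to 83.7 CPM in Col-0 Mock, and its part in the FAMA values was not tested. Among the genes of dividing cells, CDKB1;1, a cyclin-dependent kinase that stomatal precursors use in their last division, was at -0.03 in enap1-1enap2 and fell in Col-0 (-0.72), with an interaction of 0.69 ± 0.21 (edgeR adjusted p = 0.035). CDKB1;1 was the only 1 of these 9 genes whose interaction passed, where 8.07% of all tested genes were higher.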
